A study of Zea mays with 6 samples.

Results

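The genes described here are the 1416 maize genes whose IDs run from Zm00001d021000 to Zm00001d022629, of 45855 genes in the deposited tables. They were taken by ID, as the stretch of chromosome 7 that holds FDL1, taken to be Zm00001d022227. RNA was sequenced from coleoptile-stage seedlings of maize, Zea mays, in 3 samples of genotype Fdl1-/- and 3 wild-type samples, labelled as biological replicates. No table used here pairs any of the 1416 IDs with a gene name, so genes are given by ID and no role is assigned to them. The labels give neither the lesion and parent line of the Fdl1 allele, nor how the wild-type seedlings are related to the mutants, nor how many seedlings made up a sample.

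FDL1, short for fused leaves1, is the gene of a MYB family transcription factor, best known from maize for its part in laying down the seedling cuticle and in keeping young leaves from fusing. Genes that lie near each other on a chromosome are inherited together. Plants chosen as homozygous for a mutant allele therefore also tend to be homozygous for the surrounding stretch of the chromosome that came with it, as far as the nearest crossovers on each side. Maize lines differ widely in sequence and in which genes they carry, and reads of any line are counted here against genes of the B73 reference. The question put to the data is how far along the chromosome the genes around FDL1 differed between Fdl1-/- and wild-type seedlings, and where that stretch begins and ends.

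Position is given in gene numbers, the running number in the gene column of the deposited tables. The members occupy gene numbers 29533 to 31056, with FDL1 at 30658. Another 108 genes with other IDs lie between them and were left out. Among these are MIR169k, MIR1432 and MIR164d, 1057 and 283 gene numbers before and 230 after FDL1, all placed on chromosome 7 in the RefSeq annotation of assembly NAM-5.0. These microRNA genes had at most 1 count over all libraries together. The IDs jump to another series 14 gene numbers after the last member. Distances in bases were not used here.

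Libraries held 28660896 to 35793334 expected counts in Fdl1-/- and 26807205 to 36123679 in wild type. Wild-type replicate 1 stood apart, with a mean correlation of 0.944 with its own group, where the other 5 libraries had 0.956 to 0.977. The 1416 members took 3.64% to 3.70% of the counts of Fdl1-/- libraries, against 3.76% to 3.94% in wild-type libraries, so the groups did not overlap. Of the members 174 had no count in any library, 273 had counts but did not pass the filter on low counts, and 969 were tested.

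The FDL1 gene itself did not pass the test. It had 126, 134 and 127 counts in Fdl1-/- replicates 1 to 3, or 4.39, 3.75 and 3.72 CPM (counts scaled to library size), against 136, 137 and 179 counts in wild type, or 5.18, 3.88 and 5.39 CPM. The 3 mutant values span the lowest wild-type value, so the groups overlapped. By edgeR's quasi-likelihood test it differed by a log2 fold change of -0.28 (SE 0.23), with a 95% interval of -0.82 to 0.25 and an adjusted p of 0.651. Per length, its level was 3.99, 3.40 and 3.40 TPM (scaled to library and transcript length) in Fdl1-/-, against 4.11, 3.35 and 4.84 TPM in wild type. By mean TPM over the 6 libraries FDL1 stood 708th from the highest of the 969 tested members, whose median was 12.5 TPM.

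None of the 5 tested genes on either side of FDL1 passed edgeR's test, while DESeq2 called the gene directly before FDL1 and the one directly after it. Zm00001d022226, just before it, had 12.2, 10.4 and 8.62 CPM in Fdl1-/-, against 19.4, 18.3 and 13.2 CPM in wild type. Its groups did not overlap, but its log2 fold change of -0.70 (SE 0.21) had an adjusted p of 0.147 in edgeR and 0.0468 in DESeq2. Zm00001d022228, just after FDL1, had 11.5, 7.78 and 5.13 CPM in Fdl1-/-, against 3.77, 1.44 and 4.25 CPM in wild type, with a log2 fold change of 1.37 (SE 0.46) and an adjusted p of 0.202 in edgeR and 0.0473 in DESeq2. Here too every mutant value lay above every wild-type value. The other 8 neighbours overlapped between the groups. Zm00001d022225, Zm00001d022230 and Zm00001d022231, each at 14 to 32 CPM in both groups, had log2 fold changes of -0.04, -0.03 and -0.09, with SEs of 0.11 to 0.15. The nearest genes called by edgeR were Zm00001d022236, 9 gene numbers after FDL1, and Zm00001d022195, 32 before it.

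Genes of the interval were called changed more often than genes in general. A gene is called here when its adjusted p in edgeR's quasi-likelihood test, fitted over all 26098 tested genes of the table, is under 0.05. Of the 969 tested members 55 were called (5.68%), against 2.68% of all tested genes. Of these, 21 rose in Fdl1-/- and 34 fell, so 38.2% of the called members were higher, against 62.8% of all called genes. Higher genes made up 1.68% and lower genes 0.996% of all tested genes. No overlap between the groups was found for 31.7% of tested members, against 21.9% of all tested genes. Members had a median log2 fold change of -0.07, against -0.03 over the whole table, and the median size of the change, whatever its sign, was 0.28 against 0.22. The members were also somewhat more abundant, with a median of 16.1 CPM against 11.8 CPM for tested genes outside the interval, and the part of abundance in these shares was not tested.

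The share of called members stood above that of all genes in every fit run, while their number depended on the libraries used. Without wild-type replicate 1, 59 members were called (24 higher, 35 lower), 5.98% of those tested, against 2.84% of all genes. Leaving out wild-type replicate 3 gave 58 members (29 higher, 29 lower), or 5.82%, against 3.13% of all genes. Leaving out wild-type replicate 2 gave 12 members, or 1.21%, against 0.557% of all genes. Leaving out Fdl1-/- replicate 1, 2 or 3 gave 9, 11 or 11 members, that is 0.908%, 1.12% or 1.12%, against 0.48%, 0.693% or 0.727% of all genes. With all 6 libraries DESeq2 called 133 members (13.8%), against 7.67% of all genes, limma-voom 58 (5.99%), against 2.76%, and limma on log2(TPM + 1) 48 (4.95%), against 2.66%. The last of these split the called members into 25 higher and 23 lower, where edgeR had 21 higher and 34 lower. Without the filter on low counts edgeR called 55 members (4.43%), against 2.11% of all genes, and with a filter of 1 CPM in 3 libraries 54 (6.24%), against 3.09%. With RLE size factors it called 56 (5.78%), against 2.65%, and at an adjusted p under 0.01 it called 8 (0.826%), against 0.464%. Of 24 called genes described below, Zm00001d021263, Zm00001d021265, Zm00001d021291 and Zm00001d022243 kept their call in all 13 other fits, and Zm00001d022147 and Zm00001d022264 in 12 of them. The call was lost by 18, 17 and 17 of the 24 genes without Fdl1-/- replicates 1, 2 and 3, by 16 without wild-type replicate 2, by 4 without wild-type replicate 3 and by 1 without wild-type replicate 1. With all 6 libraries it was lost by 5 with limma on log2(TPM + 1) and by 1 with limma-voom. In edgeR with same-numbered replicates fitted as blocks (a replicate block) 20 of the 24 lost it.

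**Figure D1:**
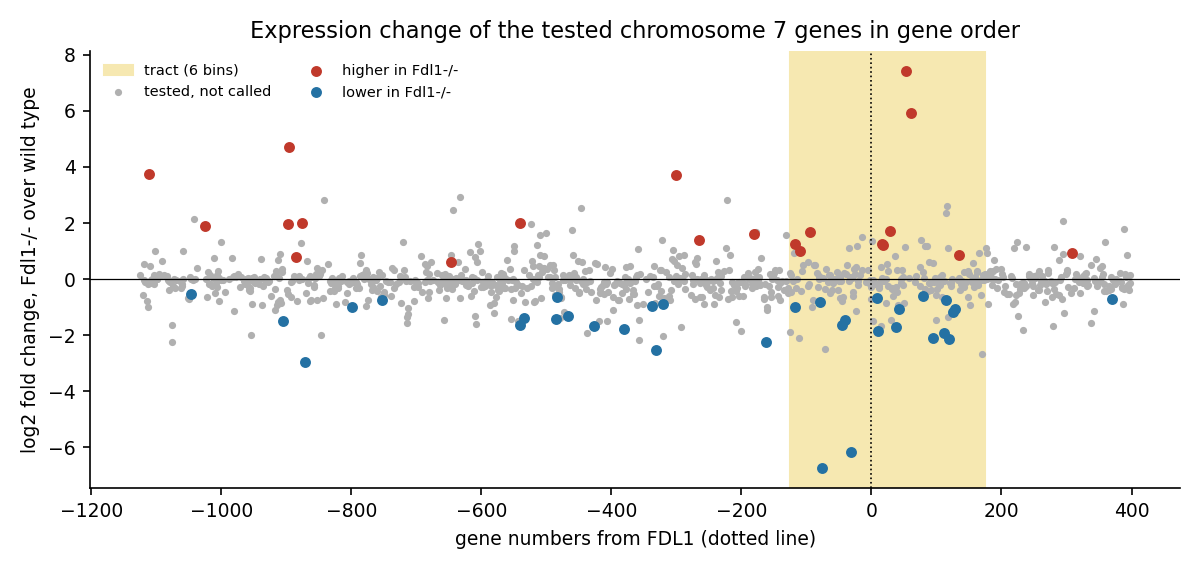
Log2 fold change, Fdl1-/- over wild type, of the 969 tested members (vertical axis) against their distance from FDL1 in gene numbers (horizontal axis). Red and blue points are the 21 higher and 34 lower genes called by edgeR, grey points the other tested genes, and the shaded band the tract of 6 bins, which holds 26 of the 55 called genes.

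The called genes were not spread evenly along the interval. The interval was divided into 31 bins of 50 gene numbers, and a bin was counted as raised when it held at least 2 called genes and its called share was at least 2 times that of all tested genes. The tract is the run of raised bins around FDL1, in which 1 bin that is not raised may be bridged. It began 125 gene numbers before FDL1 and ended 174 after it. All 6 of its bins were raised, with no bridge needed, and they held 6, 3, 4, 5, 5 and 3 called genes from the first to the last. Together 26 of 196 tested genes were called in the tract (13.3%), 9 higher and 17 lower, against 2.68% of all tested genes. In the rest of the interval 29 of 773 were called (3.75%). Since the calls set the edges of the tract, these shares describe it and are no test of it. The median change in the tract was 0.31 in size and its median abundance 16.6 CPM. Fitted changes of at least 2-fold were seen in 20.9% of its tested genes, against 10.1% of all tested genes.

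Raised bins were less frequent elsewhere in the table, and no run of them there was as long as the tract. Among 883 bins of the same width outside the interval with at least 10 tested genes, 17.2% were raised, against 38.7% of the 31 bins of the interval. The bin that starts the tract had a called share of 21.4%, where the highest share elsewhere was 16.1%, and 1 bin elsewhere also held 6 called genes. The longest run elsewhere, bridged in the same way, was 5 bins, and runs of 6 bins or more numbered 0. Bins elsewhere may span the end of a chromosome, which the tables do not mark. The median change was highest not in the tract but in the bin from 925 to 876 gene numbers before FDL1, at 0.57, a value reached by 5 of the bins elsewhere.

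**Figure D2:**
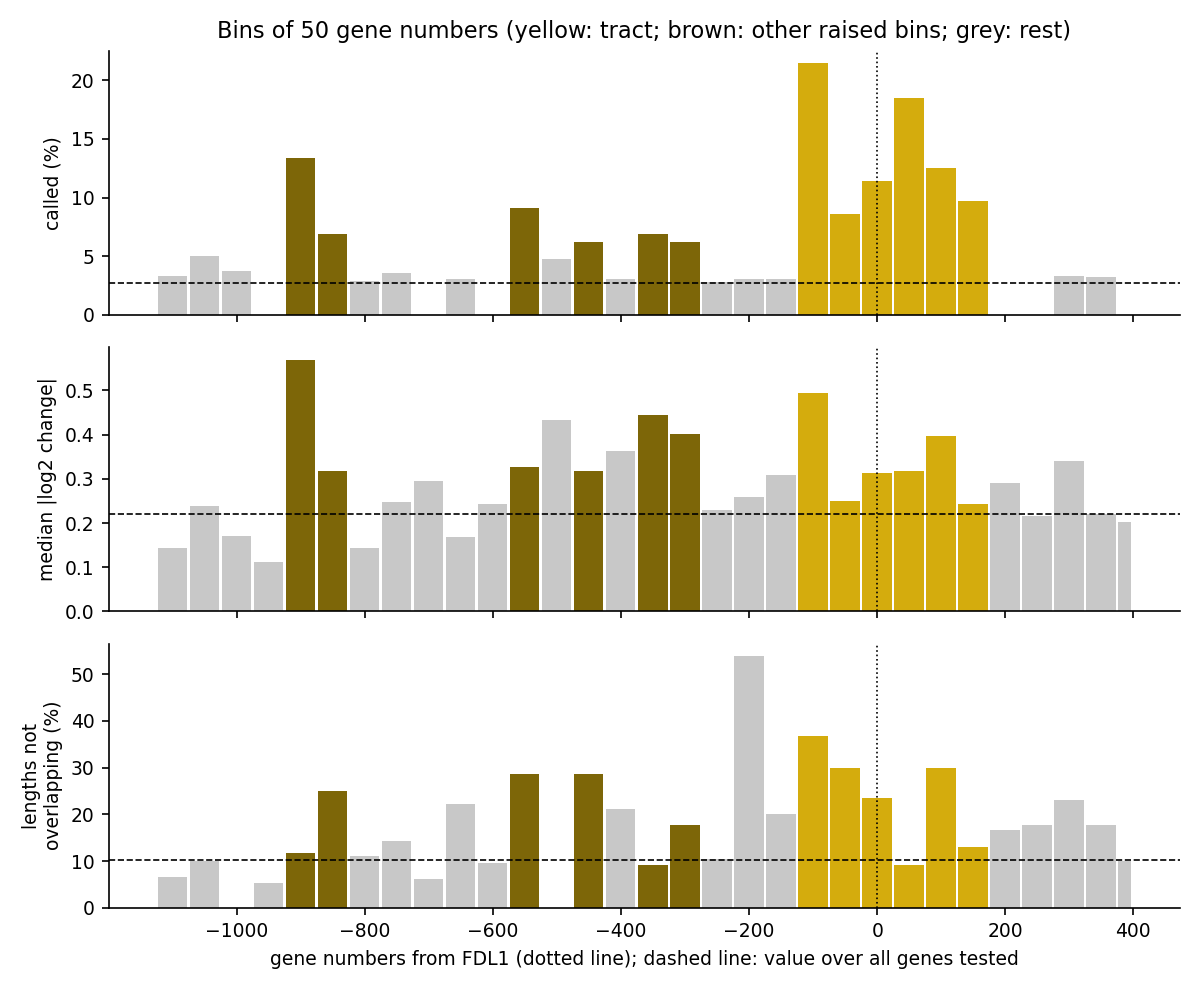
Share of tested genes called by edgeR (top, percent), median size of the log2 change (middle) and share of genes whose estimated transcript lengths did not overlap between the groups (bottom, percent), in 31 bins of 50 gene numbers ordered by distance from FDL1. Yellow bars are the 6 bins of the tract, brown bars other raised bins and grey bars the rest. Dashed lines mark the values over all tested genes, 2.68%, 0.22 and 10.3%. In the top panel yellow and brown bars stand above the line by the rule for raised bins.

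On the side after FDL1 the tract was followed by a long stretch without calls. Zm00001d022367, 135 gene numbers after FDL1, was the last called gene in it, with 47.5, 45.6 and 47.7 CPM in Fdl1-/-, against 21.7, 25.3 and 31.1 CPM in wild type, a log2 fold change of 0.85 (SE 0.14, edgeR adjusted p 0.0322). The next 110 tested genes held no call, the longest such stretch of the interval, where a call fell on every 37.3 tested genes over the whole table. Zm00001d022542, 309 gene numbers after FDL1, ended that stretch at 59.0, 55.9 and 53.5 CPM in Fdl1-/-, against 24.1, 27.5 and 36.1 CPM in wild type (log2 fold change 0.94, SE 0.16, edgeR adjusted p 0.0322). Beyond the tract 2 of 142 tested genes were called (1.41%), and 19.0% had an unadjusted p under 0.05, against 15.8% of all tested genes. The second of these was Zm00001d022599, 370 gene numbers after FDL1, with a log2 fold change of -0.70 (SE 0.13, edgeR adjusted p 0.0432). The calls of Zm00001d022367, Zm00001d022542 and Zm00001d022599 were kept in 7, 7 and 6 of the 13 other fits.

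The edge before FDL1 was less distinct. Zm00001d022108, the first called gene of the tract, had 9.09, 8.45 and 9.35 CPM in Fdl1-/-, against 20.7, 15.2 and 16.9 CPM in wild type (log2 fold change -0.97, SE 0.16, edgeR adjusted p 0.0309). The nearest called gene outside was Zm00001d022060, 162 gene numbers before FDL1, with 28 tested genes between them. It had 2.65, 2.04 and 3.37 CPM in Fdl1-/-, against 19.0, 8.22 and 11.4 CPM in wild type (log2 fold change -2.26, SE 0.36, edgeR adjusted p 0.0279). The calls of Zm00001d022108 and Zm00001d022060 were kept in 7 and 8 of the 13 other fits. Between the tract and the run of bins before it 3 of 102 tested genes were called (2.94%), close to the share over all genes, but 23.5% had an unadjusted p under 0.05 and 31.4% had groups that did not overlap, against 15.8% and 21.9% of all tested genes.

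Most called genes of the tract were lower in Fdl1-/-. The 17 lower genes had log2 fold changes of -6.73 to -0.60, with a median of -1.47, and 12 of them fell at least 2-fold. Zm00001d022147, 76 gene numbers before FDL1, had 1, 0 and 0 counts in Fdl1-/-, against 41, 58 and 43 counts in wild type, or 1.56, 1.64 and 1.29 CPM. The mutant libraries were thus at or near 0 while the wild-type libraries lay close together. Wild type exceeded the mutant 148 times (95% counting interval 26.1 to 5874, edgeR adjusted p 0.00943). The single mutant count was in replicate 1, and leaving out that library kept the call, with an adjusted p of 0.0400 in edgeR. Of all 26098 tested genes, 21 (0.0805%) were at or near 0 in 1 group alone, and 1 of these had at most 3 counts in every mutant library and at least 1 CPM in wild type (0.00383%), and it was this gene. The other 20 genes (0.0766%) were near 0 in wild type instead, and 0 of them lie in the interval.

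Another gene in the tract came close to that pattern but missed its minimum level, and was singled out after its values were seen. Zm00001d022195, 32 gene numbers before FDL1, had 0, 1 and 0 counts in Fdl1-/-, against 52, 12 and 22 counts in wild type. Its wild-type libraries differed among themselves more than those of Zm00001d022147, with replicate 1 the highest. Wild type exceeded the mutant 89.4 times (95% counting interval 15.6 to 3573, edgeR adjusted p 0.0430). That call was lost without wild-type replicate 2 or 3 or any 1 mutant replicate. Its expected counts were whole numbers, within 0.005, in every library.

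Several well expressed genes close to FDL1 were also lower, and the next 3 were singled out after their values were seen. Zm00001d022237, 10 gene numbers after FDL1, had 75.8, 92.7 and 104 CPM in Fdl1-/-, against 434, 320 and 226 CPM in wild type. The lowest wild-type library was above the highest mutant library by more than the spread within the mutant group. The wild-type libraries themselves ranged widely, from 226 to 434 CPM. The log2 fold change was -1.85 (SE 0.25, edgeR adjusted p 0.0182). This call was kept in 8 of the 13 other fits and was lost without any 1 mutant replicate. Zm00001d022264, 37 gene numbers after FDL1, had 55.6, 72.2 and 79.0 CPM in Fdl1-/-, against 255, 210 and 213 CPM in wild type (log2 fold change -1.71, SE 0.16, edgeR adjusted p 0.00540). It stayed called whichever library was left out. Zm00001d022144, 79 gene numbers before FDL1, had 92.1, 84.6 and 90.0 CPM in Fdl1-/-, against 150, 163 and 160 CPM in wild type (log2 fold change -0.83, SE 0.10, edgeR adjusted p 0.0114). This is a smaller change with little spread in either group, and it was lost without any 1 mutant replicate or wild-type replicate 2.

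Toward the far end of the tract Zm00001d022321 and Zm00001d022350 were among the 6 largest falls of the interval in genes with at least 1 CPM in the higher group. Zm00001d022321, with 14 annotated transcripts, had 2.44, 4.67 and 3.43 CPM in Fdl1-/-, against 16.1, 16.5 and 12.3 CPM in wild type (log2 fold change -2.09, SE 0.27, edgeR adjusted p 0.0150). Zm00001d022350 had 20, 17 and 19 counts in Fdl1-/-, against 63, 105 and 76 in wild type (log2 fold change -2.15, SE 0.32, edgeR adjusted p 0.0228). In both genes every mutant library was well below every wild-type library. Their calls were kept in 9 and 8 of the 13 other fits. Zm00001d022321 lost its call without Fdl1-/- replicate 1 or 3, and Zm00001d022350 without any 1 mutant replicate.

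The 9 higher genes of the tract had fitted log2 fold changes of 0.85 to 7.43, the highest from a gene at 0 in wild type and no bound, with a median of 1.27, and 8 of them rose at least 2-fold. Zm00001d022290, 61 gene numbers after FDL1, had 210, 267 and 167 counts in Fdl1-/-, against 0, 0 and 10 counts in wild type. All 10 wild-type counts lay in replicate 3, so the wild-type libraries did not behave alike. The mutant exceeded wild type 61.9 times (95% counting interval 33.5 to 130, edgeR adjusted p 0.0314). The fit gave it 5.93 on the log2 scale, but 10.72 without wild-type replicate 3, and 5.31 without wild-type replicate 2, where the call was lost, as it was without any 1 mutant replicate. Zm00001d022280, 53 gene numbers after FDL1 and under 1 CPM, was singled out after its values were seen. It had 17, 21 and 28 counts in Fdl1-/- and 0 in every wild-type library, at least 6.91-fold higher against a floor of 3 counts per library (edgeR adjusted p 0.0253). It lies 2 tested genes from Zm00001d022290, and the 2 genes with the largest fitted rises of the interval were thus next but 1 to each other.

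Zm00001d022243, 16 gene numbers after FDL1, was the most firmly called gene of the tract, and was singled out after its values were seen. It had 90.8, 92.8 and 99.7 CPM in Fdl1-/-, against 37.7, 37.9 and 42.2 CPM in wild type. Both groups were tight and far apart, with a log2 fold change of 1.27 (SE 0.10, edgeR adjusted p 0.00288). It kept its call under all 13 other fits of expression that were run. Zm00001d022245, 18 gene numbers after FDL1, rose too, with 1 tested gene that was not called between the 2 genes. It had 9.61, 8.73 and 9.70 CPM in Fdl1-/-, against 3.54, 3.88 and 4.61 CPM in wild type (log2 fold change 1.22, SE 0.19, edgeR adjusted p 0.0253). Its call was kept in 8 of the 13 other fits.

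**Figure D3:**
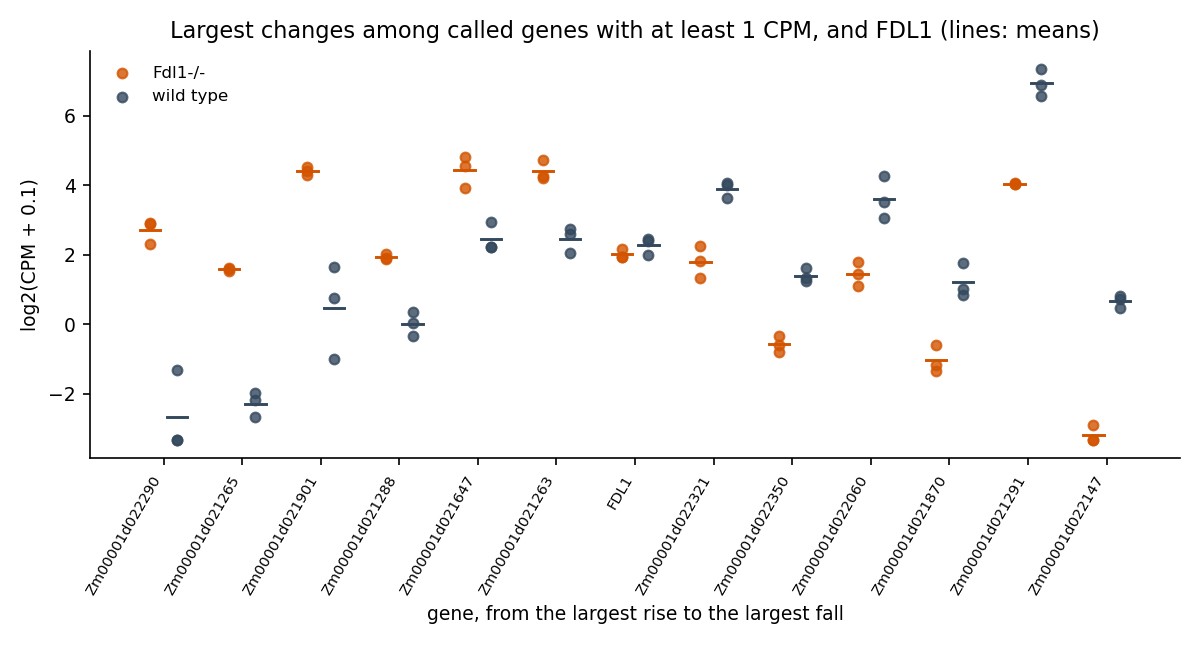
Expression as log2(CPM + 0.1) in each library (vertical axis) of FDL1 and of the 6 largest rises and 6 largest falls among called genes with at least 1 CPM in the higher group (horizontal axis, in order of fold change). Orange points are the 3 Fdl1-/- libraries and dark points the 3 wild-type libraries, with a line at their mean. The groups overlap for FDL1, while the other genes were chosen with groups that do not overlap. The lowest points of Zm00001d022290 and Zm00001d022147 are libraries with 0 counts.

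Farther from FDL1, 2 other runs of raised bins stood out. The first run, 925 to 826 gene numbers before FDL1, is short, with 6 called of 59 tested genes (10.2%), 4 higher and 2 lower. Of the 6 largest rises and 6 largest falls of the interval in called genes with at least 1 CPM in the higher group, the 3 that kept their call under all 13 other fits of expression lie here, 897, 895 and 871 gene numbers before FDL1. Zm00001d021291 had 16.2, 16.2 and 16.6 CPM in Fdl1-/-, against 93.9, 161 and 119 CPM in wild type (log2 fold change -2.93, SE 0.21, edgeR adjusted p 0.00221). The mutant libraries were nearly equal, while the wild-type libraries spread widely but far above them. Zm00001d021265 had 84, 100 and 102 counts in Fdl1-/-, against 4, 2 and 4 counts in wild type, a ratio of 27.5 (95% counting interval 14.7 to 58.0, edgeR adjusted p 0.00493). Zm00001d021263, the tested gene before it, had 18.6, 19.0 and 26.4 CPM in Fdl1-/-, against 5.90, 4.08 and 6.53 CPM in wild type (log2 fold change 1.95, SE 0.24, edgeR adjusted p 0.0117). These neighbours rose together, and the expected counts of both were not whole, so reads may have been divided between them and other genes. Zm00001d021288 rose too, with 115, 130 and 121 counts in Fdl1-/-, against 31, 33 and 23 in wild type (log2 fold change 1.99, SE 0.30, edgeR adjusted p 0.0234). Of the tested genes of this run 45.8% had groups that did not overlap, against 21.9% of all tested genes. In the 106 tested genes before it 2.83% were called and 13.2% had an unadjusted p under 0.05, close to or under the shares over all genes, 2.68% and 15.8%.

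The second run, 575 to 276 gene numbers before FDL1, is as wide as the tract but thinner. Its 6 bins, 4 of them raised, held 12 called of 201 tested genes (5.97%), 2 higher and 10 lower, against 2.68% of all tested genes. Unadjusted p-values under 0.05 were as frequent as in the tract, at 33.8% against 32.7%, where all tested genes had 15.8%. The median change was 0.36 in size. Zm00001d021901 had 21.3, 23.1 and 19.7 CPM in Fdl1-/-, against 3.01, 0.397 and 1.60 CPM in wild type (log2 fold change 3.70, SE 0.60, edgeR adjusted p 0.0289, and 4.43 without wild-type replicate 1). Zm00001d021647 had 28.1, 23.2 and 15.2 CPM in Fdl1-/-, against 4.53, 4.59 and 7.56 CPM in wild type (log2 fold change 1.99, SE 0.30, edgeR adjusted p 0.0241). Zm00001d021870 had 10, 20 and 10 counts in Fdl1-/-, against 45, 68 and 110 in wild type (log2 fold change -2.52, SE 0.44, edgeR adjusted p 0.0352). In the tested genes of the interval outside the tract and both runs 11 of 513 were called (2.14%), against 2.68% of all tested genes. Bins rich in calls had been taken out, so a low share there follows from the rule. Of these 513 genes 19.1% had an unadjusted p under 0.05 in edgeR, against 15.8% of all tested genes. Groups did not overlap for 24.0% of them, against 21.9%. The median change there was 0.22 in size, the value over all tested genes.

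Called genes that were neighbours among tested genes did not always move together. There were 8 such pairs, of which 5 changed in 1 direction and 3 in opposite directions. Zm00001d021647 rose (log2 fold change 1.99) while Zm00001d021648, next to it, fell (-1.62). In the same way Zm00001d021288 rose and Zm00001d021291 fell, and Zm00001d022108 fell (-0.97) while Zm00001d022109 rose (1.25). Zm00001d022236 and Zm00001d022237, just after FDL1, both fell (-0.66 and -1.85). Whether any of these pairs are copies of each other or overlap was not tested. Expected counts were not whole for 70.9% of called members, 67.0% of tested members and 68.3% of all tested genes.

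The length column of the tables gave a second readout that the expression test does not use. It is the estimated mean length of a gene's transcripts, weighted by their estimated shares, so it moves when reads shift between annotated transcripts and does not show that any transcript changed in length. Lengths could be tested for 12629 genes, 509 of them members. With an adjusted p under 0.05 in limma 1 gene of the table passed (0.00792%), and it is a member, Zm00001d021993, 220 gene numbers before FDL1. Its length was 1422, 1404 and 1419 nt in Fdl1-/-, against 1764, 1770 and 1811 nt in wild type (log2 difference -0.33, adjusted p 0.0299 in limma). The 2 groups were far apart and each was tight, but the gene did not pass in limma without wild-type replicate 1 or 2 or any 1 mutant replicate. Its expression, at 23.5, 19.8 and 18.1 CPM in Fdl1-/-, against 29.9, 32.6 and 36.9 CPM in wild type, had a log2 fold change of -0.70 (SE 0.14) and an adjusted p of 0.0539 in edgeR. That expression change was called by DESeq2 (adjusted p 0.00232), by limma-voom (0.0490), by edgeR with a filter of 1 CPM in 3 libraries (0.0496) and by edgeR without wild-type replicate 1 (0.0482).

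Below that threshold, genes with shifted lengths were more frequent in the tract than in the rest of the interval or over the whole table. Unadjusted p-values under 0.01 in limma were found for 10 of 110 genes in the tract (9.09%) and for 8 of 399 in the rest of the interval (2.01%), against 1.35% of all genes with a length test. All 10 lay within 83 gene numbers of FDL1, 5 bins of the tract holding 1, 3, 4, 0 and 2 of them and the last bin 0. Lengths did not overlap between the groups for 24.5% of genes in the tract, against 10.3% of all genes with a length test. The share was 15.5% in the rest of the interval. Between the second run and the tract it was 26.2% (11 of 42 genes), so it did not fall at the edge before FDL1. In the bin from 225 to 176 gene numbers before FDL1 it was 53.8% (7 of 13 genes), and 2 of these 13 had an unadjusted p under 0.01 in limma. With wild-type replicate 1 left out, 13 of 109 genes of the tract had such a p (11.9%), against 1.99% of all genes. Of the 18 members with p under 0.01 in limma 15 were shorter in Fdl1-/-, against 98 of the 170 such genes in the whole table. Within the tract 7 were shorter and 3 longer. Of these 10 genes 1 was also called by expression, Zm00001d022243, at 1129, 1116 and 1130 nt in Fdl1-/-, against 1096, 1076 and 1098 nt in wild type (unadjusted p 0.00896).

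FDL1 itself is among these genes. Its length was 1542, 1542 and 1554 nt in Fdl1-/-, against 1621, 1607 and 1610 nt in wild type, averaging 1546 ± 6.87 nt in Fdl1-/- and 1613 ± 7.47 nt in wild type (SD, n = 3 each). Mutant replicates 1 and 2 had the same value, while the wild-type values differed. The log2 difference was -0.061, with an unadjusted p of 0.000177 and an adjusted p of 0.330 in limma, and it ranked 6th by p of the 12629 genes. An exact two-sided permutation test of the lengths gave p = 0.1, the smallest that 3 against 3 libraries allow. FDL1 has 2 annotated transcripts.

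Length shifts were also seen in genes of the tract whose expression edgeR did not call, and the next 3 were singled out after their values were seen. Zm00001d022307, 81 gene numbers after FDL1, was at 731, 746 and 712 nt in Fdl1-/-, against 853, 848 and 824 nt in wild type (log2 difference -0.21, unadjusted p 0.000370), while its expression differed by 0.06 on the log2 scale (SE 0.19). Zm00001d022139, 83 gene numbers before FDL1, was at 1121, 1088 and 1139 nt in Fdl1-/-, against 1242, 1222 and 1245 nt in wild type (log2 difference -0.15, unadjusted p 0.000767), and its expression differed by 0.24 on the log2 scale (SE 0.20). Zm00001d022202, 24 gene numbers before FDL1, was at 1607, 1626 and 1618 nt in Fdl1-/-, against 1666, 1678 and 1667 nt in wild type (log2 difference -0.047, unadjusted p 0.000841). Its expression did not overlap between the groups, with a log2 fold change of 0.43 (SE 0.11) and an adjusted p of 0.0971 in edgeR and 0.0336 in DESeq2. Adjusted p-values of the length differences in limma were 0.358, 0.362 and 0.362 for these 3 genes. Outside the tract Zm00001d021624, 564 gene numbers before FDL1, was at 3769, 3793 and 3835 nt in Fdl1-/-, against 4127, 4070 and 4046 nt in wild type (log2 difference -0.10, unadjusted p 0.000262, adjusted p 0.330 in limma). Its expression differed by 0.03 on the log2 scale (SE 0.11).

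**Figure D4:**
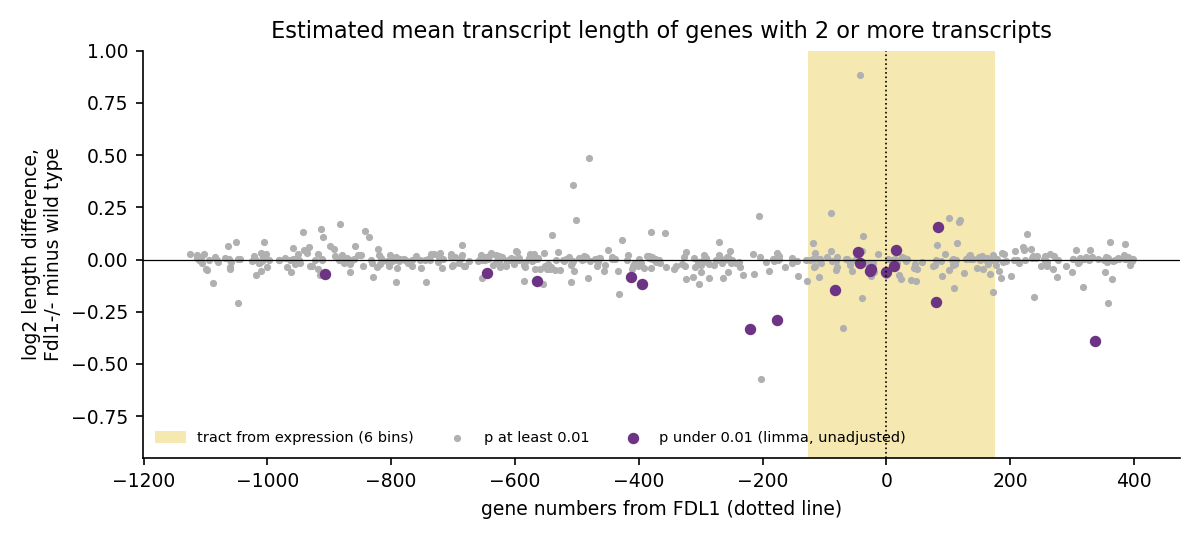
Log2 difference in estimated mean transcript length, Fdl1-/- minus wild type (vertical axis), of 509 members with at least 2 annotated transcripts, against distance from FDL1 in gene numbers (horizontal axis). Purple points have an unadjusted p under 0.01 in limma, grey points do not, and the shaded band is the tract found from expression. Of 18 purple points 10 lie in the band, and 15 lie below 0.

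The extent of the tract depended on the fit more on the side before FDL1 than on the side after it. With all 6 libraries in a fit without a replicate block, the end after FDL1 lay at 174 gene numbers with DESeq2, limma-voom, limma on TPM, another scaling and both other filters. With narrower or shifted bins or another call rule it lay at 74 to 149. The start lay 125 gene numbers before FDL1 in most of these fits, but 225 before it with limma on log2(TPM + 1), 575 with a filter of 1 CPM in 3 libraries and 675 with limma-voom, both of which joined it to the second run. With bins shifted by 25 gene numbers it lay 200 before. Without wild-type replicate 1 it also started 575 gene numbers before FDL1, and without wild-type replicate 3 it started 175 before. Without Fdl1-/- replicate 2 or 3 or wild-type replicate 2 the raised bins nearest FDL1 were 25 to 124, 25 to 74 and 25 to 74 gene numbers after it. Without Fdl1-/- replicate 1 no bin near FDL1 was raised, and the nearest was 925 to 876 gene numbers before it. In these 4 fits, which call 128 to 193 genes in the whole table, the gene numbers of the tract still held 4 to 7 called genes, 2.01% to 3.54% of those tested, against 0.48% to 0.727% of all genes. With all 6 libraries and a replicate block, the raised bin nearest FDL1 lay 125 to 174 gene numbers after it, and no run held FDL1.

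**Figure D5:**
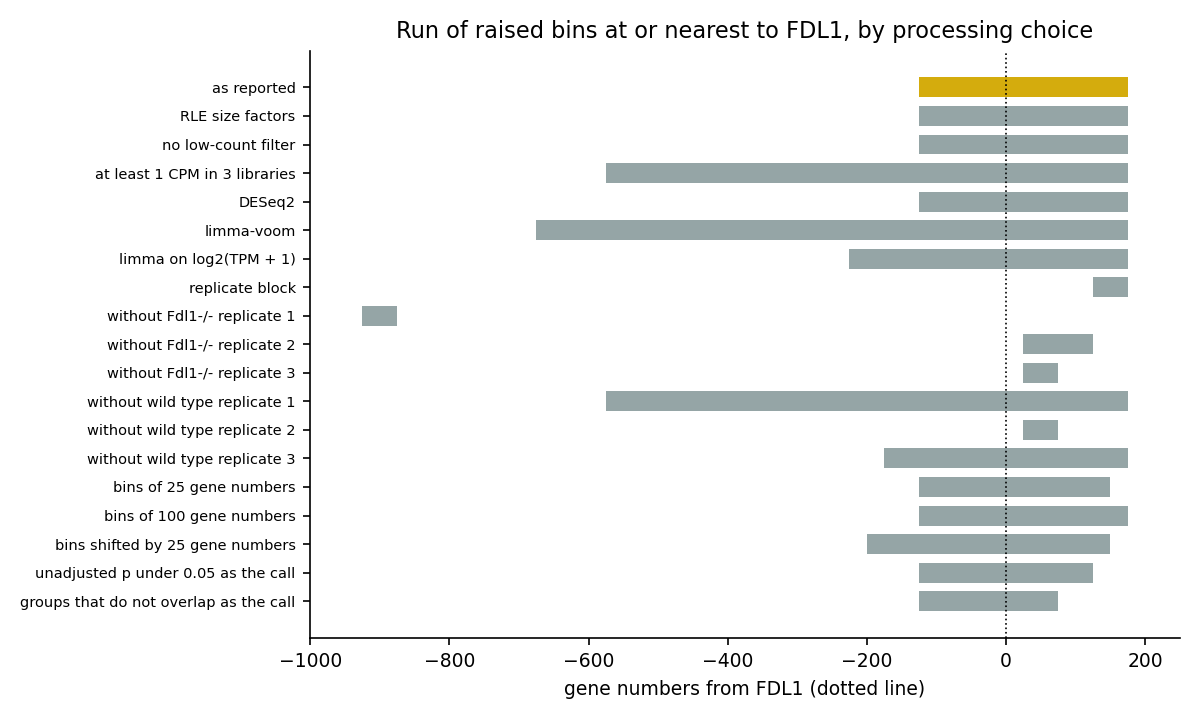
Run of raised bins that holds FDL1 or lies nearest to it (horizontal bars, in gene numbers from FDL1) under each fit, bin choice or left-out library (vertical axis). The yellow bar is the tract as reported, from 125 before to 174 after FDL1, and 10 of the 18 grey bars share its right end. The left ends of 9 of those 10 lie 675 to 125 gene numbers before FDL1. The other bar, from the fit with a replicate block, starts 125 after FDL1 and does not hold it.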

How the data were processed

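Per the submitters' processing notes Bowtie2, RSEM, DESeq2, limma and the genome build B73 RefGen_v4 were used, with versions and roles not given in the sources used here. Per the labels' protocols the library kit was TruSeq Stranded mRNA. Per the file headers the deposited tables are RSEM gene output. In the deposited expected counts, reads that match several genes are split among them by estimate. The TPM values deposited by the authors are scaled to length and library, and the deposited FPKM values were not used. The length column, also deposited by the authors, is a mean over a gene's annotated transcripts.

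Expected counts were rounded to whole numbers. The test was edgeR 4.0.16 under R 4.3.3: filterByExpr (minimum count 10, minimum total 15), TMM scaling, quasi-likelihood test on genotype with all 6 libraries and no replicate block, and Benjamini-Hochberg adjustment over all tested genes. CPM values are on the TMM scale. Each SE was derived as the size of the log2 change over the root of its F value. Log2 lengths were tested with limma 3.58.1 for tested genes with at least 2 transcripts, a count in every library and a length that varies. DESeq2 1.42.0 was an alternative. The edgeR and limma fits and the search for the tract were tested on simulated data. The samples are called biological replicates, but nothing says what was grown or pooled separately, so p-values measure the spread between these samples. Counting intervals (exact, 95%) and floors of 3 counts cover counting error only; at 3 counts the floor was 0.084 to 0.114 CPM per library.

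The members, bins and rules were chosen with earlier results of these data known. Named genes are FDL1, its 5 tested neighbours on each side, the 6 largest rises and 6 largest falls among called members with groups that do not overlap and at least 1 CPM in the higher group, the called genes at the edges of the tract, the 3 smallest length p-values, and members with at most 3 counts in every library of a group and at least 1 CPM in the other. Every other gene named was chosen after its values were seen. Of the 1416 IDs 0 matched the RefSeq gene table of assembly NAM-5.0, and no marker of the labelled tissue could be checked. Sequences were not used here.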

Additional observations from a re-analysis of the deposited data

How the results depend on the processing

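The count of called members was 55. It was 8 at an adjusted p under 0.01 and 133 with DESeq2 (55 higher, 78 lower), where 7.67% of all genes were called. It was 54 to 58 with the other scaling, filters and limma-voom, and 48 with limma on log2(TPM + 1), where 25 were higher and 23 lower. Leaving out 1 library gave 9 to 59. A replicate block gave 9, where 0.467% of all genes were called, and 20 of the 24 called genes followed through the other fits lost their call. Same-numbered samples had correlations of deviations from their group means of -0.22, 0.13 and -0.18, so the numbers were not taken as pairs. Counts in the gene numbers of the tract and the 2 length counts at p under 0.01 were added after seeing the data. In the tract 26 genes were called (13.3%, against 2.68% of all genes), and 5 at an adjusted p under 0.01 (2.55%, against 0.464%). DESeq2 called 41 (21.0%, against 7.67%), and a replicate block gave 3 (1.53%, against 0.467%). Leaving out 1 library gave 4 to 25. The 4 came without Fdl1-/- replicate 1 (2.01%, against 0.48%), and 25 without wild-type replicate 1 (12.6%, against 2.84%). The width of the tract was 300 gene numbers as reported, 750 with a filter of 1 CPM in 3 libraries, 850 with limma-voom and 50 to 750 without 1 library. With a replicate block the nearest run was 50 wide, 125 to 174 gene numbers after FDL1. It did not hold FDL1, nor did the run in 4 of the fits without 1 library. For length, the 1 call became 0 with a replicate block and 0 to 1 without 1 library. Of members, 18 had a length p under 0.01 in limma (3.54%, against 1.35% of all genes with a length test), and 12 to 31 without 1 library. In the tract 10 had such a p (9.09%), then 7 to 13 without 1 library, and 8 with a replicate block. The log2 fold change of FDL1 was -0.42 to -0.14 and passed under no setting, with -0.27 under a replicate block. The block and every left-out library leave fewer residual degrees of freedom. Without wild-type replicate 1 or 3 the called members numbered 59 and 58. The cause of the differing counts was not tested.

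None of the 24 called genes followed through the other fits of expression changed sign, which was largely fixed by groups that do not overlap. The called genes Zm00001d021648 and Zm00001d022109, named only as members of pairs, were not followed through those fits. Signs turned for genes not called: to 0.010 and 7.7e-05 for Zm00001d022225 and Zm00001d022230 with limma on log2(TPM + 1), and in the fits without 1 library, which gave -0.051 to 0.076 for Zm00001d021624, -0.22 to 0.079 for Zm00001d022218, -0.37 to 0.13 for Zm00001d022224, -0.15 to 0.066 for Zm00001d022225, -2.38 to 0.089 for Zm00001d022229, -0.092 to 0.023 for Zm00001d022230, -0.61 to 0.27 for Zm00001d022234 and -0.098 to 0.19 for Zm00001d022307. With 3 libraries a group and few counts in genes near 0, small changes of low genes were not detectable at this depth.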
